A study of Mus musculus with 19 samples.

Results

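The insulin-like growth factors, their receptors and their binding proteins were followed at a musculoskeletal injury site in the mouse. The 10 genes were Igf1 and Igf2, the receptors Igf1r and Igf2r, and the binding proteins Igfbp2 to Igfbp7. They were chosen by gene symbol, as the members of this signalling system picked for description, out of 27998 genes counted in each of 19 single-cell RNA libraries. Their levels were compared across macrophage, stromal and vascular cells and across the days after injury.

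The model combined a partial-thickness scald burn on the back with cutting of the Achilles tendon (tenotomy), after which heterotopic bone forms at the tendon. Soft tissue around the tendon was digested with collagenase and dispase and loaded on a droplet system that reads the 3′ ends of transcripts. The libraries comprised day 0 (n = 4), day 3 (n = 3), day 7 (n = 4) and day 21 (n = 4) after injury, plus a group given p7N3 (n = 4). p7N3 is a peptide that activates CD47, given into the peritoneum at 10 mg/kg daily, for which the labels name 3 days before and 3 days after injury. The labels list harvest at day 7 for p7N3 replicates 1 to 3 and no harvest day for replicate 4, and day 7 without peptide was its comparison group. The labels name no vehicle for day 7, whereas the study's methods describe PBS-treated controls. The labels describe the burn and tenotomy for day 0 too, whereas the study's text treats day 0 as tissue before injury. They name C57 and LysmCre/Tgfb1fx/fx mice for the series without giving the genotype of any library. LysM-Cre recombines floxed alleles in myeloid cells at large, so it also acts outside macrophages. Nothing in the labels says that libraries came from separate animals, so each p-value measures the spread between libraries, which may be partly technical.

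Insulin-like growth factors are secreted hormones related to insulin that promote growth, survival and matrix production. Igf1 and Igf2 both signal through the tyrosine kinase receptor Igf1r, while Igf2r carries Igf2 to lysosomes for destruction and does not signal in the same way. The binding proteins hold most of the ligand outside cells, prolong its life and, depending on the protein and on proteases that cut it, hold it back or deliver it. In healing muscle and tendon, macrophages and fibroblasts are both known sources of Igf1.

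A total of 39541 cells passed the filters (at least 500 genes and at most 25% mitochondrial reads). Library totals within these cells ran from 3019467 to 5383855 UMIs (unique molecular identifiers, 1 per captured transcript) at day 0 and from 11064153 to 39870492 UMIs in the other groups. Clusters were named from marker lists, by rules set after the clusters had been seen, and the 10 genes and their pathway list were kept out of the genes used for clustering. The monocyte/macrophage-like cells numbered 14357, the stromal-like (fibroblast-like) cells 13809, the endothelial-like cells 3062 and the mural-like cells (pericytes and smooth muscle of vessels) 1901. Vascular results at day 3 rest on 86 endothelial-like cells (27 to 31 a library) and 94 mural-like cells (28 to 36 a library). Day 0 held 182 mural-like cells (25 to 66 a library). Endothelial-like sums held 784892 to 906728 UMIs a library at day 3. At day 0 they held 1110713 to 1338792 UMIs from 216 to 304 cells a library. The make-up of these lineages turned over with time. The cluster led by Myoc and Inmt held 98.4% of stromal-like cells at day 0, the cluster led by Prg4 and Pla2g2e held 89.9% at day 3, and the cluster led by Sfrp4 and Gdf10 held 58.2% at day 21. Among endothelial-like cells the cluster led by Timp4 and Aqp7 held 88.3% at day 0 and that led by Tmem252 and Selp 96.5% at day 3, while among mural-like cells that led by Pln and Myh11 held 78% at day 0 and that led by Higd1b and Rgs5 84.8% at day 7. Any 2 libraries shared a median of 4 cell barcodes and at most 22 (171 pairs).

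All 10 genes are protein-coding and were placed in GRCm38 with the GENCODE vM21 annotation. Igf1 lies on chromosome 10 (87858265 to 87937042, plus strand), Igf1r on chromosome 7 (67952827 to 68233668, plus strand) and Igf2r on chromosome 17 (12682406 to 12769664, minus strand). Igf2 lies on chromosome 7 (142650766 to 142666816, minus strand), 72.6 kb from H19, the imprinted noncoding RNA with which it is known to share control. Igfbp2 (72824503 to 72852474, plus strand) and Igfbp5 (72857932 to 72874884, minus strand) stand tail to tail on chromosome 1, 5.5 kb apart. Igfbp3 lies on chromosome 11 (7206086 to 7213923, minus strand), 3.5 kb from Igfbp1, and Igfbp4 lies on the same chromosome (99041244 to 99054392, plus strand). Igfbp6 lies on chromosome 15 (102144362 to 102149511, plus strand) and Igfbp7 on chromosome 5 (77349240 to 77408041, minus strand). Antisense genes overlap Igf1 (Igf1os), Igf2 (Igf2os), Igf2r (Airn) and Igfbp7 (Gm34648), and the sources used here do not say whether the counting used strand.

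The 100 bases before the RefSeq start (GRCm38.p6) of 3 binding proteins are shown because Igfbp6 and Igfbp3 fell and Igfbp4 rose in stromal-like cells on all 3 days after injury. Capitals mark matches to the TATA-box pattern TATANA on either strand, with overlapping matches joined. A match is a description of the letters, not a site shown to be used. The pattern occurred in 10% of 27025 mouse promoters of this length and, of the 10 genes, only in Igfbp3 and Igfbp4. The Sp1-type pattern GGGCGG, found in 25.2% of the promoters, occurred on either strand in Igf1r, Igf2r, Igfbp2 and Igfbp7 and in none of the 3 shown.
Igfbp6 (chr15:102144086-102144185, plus strand): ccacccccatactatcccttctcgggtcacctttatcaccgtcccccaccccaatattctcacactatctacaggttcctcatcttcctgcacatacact
Igfbp3 (chr11:7213924-7214023, minus strand): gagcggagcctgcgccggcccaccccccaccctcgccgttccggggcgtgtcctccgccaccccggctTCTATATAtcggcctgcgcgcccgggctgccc
Igfbp4 (chr11:99041144-99041243, plus strand): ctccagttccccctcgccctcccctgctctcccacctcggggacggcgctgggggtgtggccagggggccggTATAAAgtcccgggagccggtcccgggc

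The lineages had distinct sets of these transcripts. Levels are in CPM, the UMIs of a gene when all UMIs of that lineage in that library are scaled to a total of 1000000, given as the mean ± SD over 19 libraries unless stated. They are described with no test, since the lineages were set by clustering the same cells. Because these are 3′-end counts, 1 UMI stands for 1 transcript whatever its length, and levels of different genes are set side by side on that scale only. Igf1 was highest in stromal-like cells at 863 ± 306 CPM, followed by monocyte/macrophage-like cells at 257 ± 90.8 CPM, endothelial-like cells at 53.1 ± 27.7 CPM and mural-like cells at 26.8 ± 18.9 CPM. Stromal-like cells exceeded macrophages, and macrophages exceeded both vascular lineages, in 19 of 19 libraries. Endothelial-like cells exceeded mural-like cells in 17 of 19. Igf2 was far lower, at 35.5 ± 33.5 CPM in stromal-like, 24.4 ± 33.8 CPM in mural-like, 17.4 ± 16.3 CPM in endothelial-like and 1.45 ± 1.14 CPM in monocyte/macrophage-like cells, and the first 3 changed order between days. The endothelial-like and mural-like levels of Igf2 did not differ beyond their spread (endothelial higher in 8 of 19 libraries). Outside these lineages skeletal muscle-like cells held 42.9 ± 53.05 CPM of Igf2 (10 libraries).

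Of these 4 lineages macrophages held the least of both receptors in every library. Igf1r stood at 48.1 ± 19.9 CPM in mural-like, 41.3 ± 16.8 CPM in endothelial-like, 35.4 ± 6.53 CPM in stromal-like and 18.5 ± 6.60 CPM in monocyte/macrophage-like cells. The first 3 overlapped widely, with stromal-like cells above endothelial-like cells in 8 of 19 libraries. Outside these lineages Igf1r reached 50.7 CPM in granulocyte-like (8 libraries) and 46.5 CPM in skeletal muscle-like cells (10 libraries). It was lower than in macrophages in some others, at 8.22 CPM in dendritic cell-like and 13.1 CPM in plasmacytoid dendritic cell-like cells. Igf2r stood at 62.7 ± 21.6 CPM in mural-like, 61.3 ± 15.4 CPM in stromal-like, 42.0 ± 11.4 CPM in endothelial-like and 16.6 ± 10.3 CPM in monocyte/macrophage-like cells. Mural-like and stromal-like cells did not differ in Igf2r beyond their spread (stromal-like higher in 10 of 19 libraries).

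Each binding protein had its own order. Igfbp7, a weak binder of insulin-like growth factors laid down around vessels, was the most abundant member: 7113 ± 1323 CPM in endothelial-like, 6727 ± 1533 CPM in mural-like and 1892 ± 598 CPM in stromal-like cells. Igfbp4, an inhibitory binding protein that is cut by the protease Pappa, led in stromal-like cells at 2227 ± 940 CPM. It stood at 681 ± 304 CPM in mural-like, 299 ± 166 CPM in monocyte/macrophage-like and 266 ± 120 CPM in endothelial-like cells. Igfbp6, which prefers Igf2 as its ligand, reached 1176 ± 1216 CPM in stromal-like cells against 28.5 to 48.9 CPM in the other 3 lineages, and a separate tendon/cartilage cluster (11 libraries) held 1690 ± 981 CPM. Igfbp5, a matrix-bound binding protein, was found mainly in mural-like cells at 903 ± 598 CPM and stromal-like cells at 734 ± 433 CPM, with stromal-like above mural-like in 7 of 19 libraries. Igfbp3, the main carrier of these ligands in blood, was highest in endothelial-like cells in 19 of 19 libraries, at 451 ± 182 CPM against 113 ± 90.3 CPM in stromal-like cells. Igfbp2 was sparse, at 23.7 ± 52.8 CPM in mural-like cells, where a few libraries carried most of it, and 6.45 ± 7.73 CPM in stromal-like cells.

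**Figure D1:**
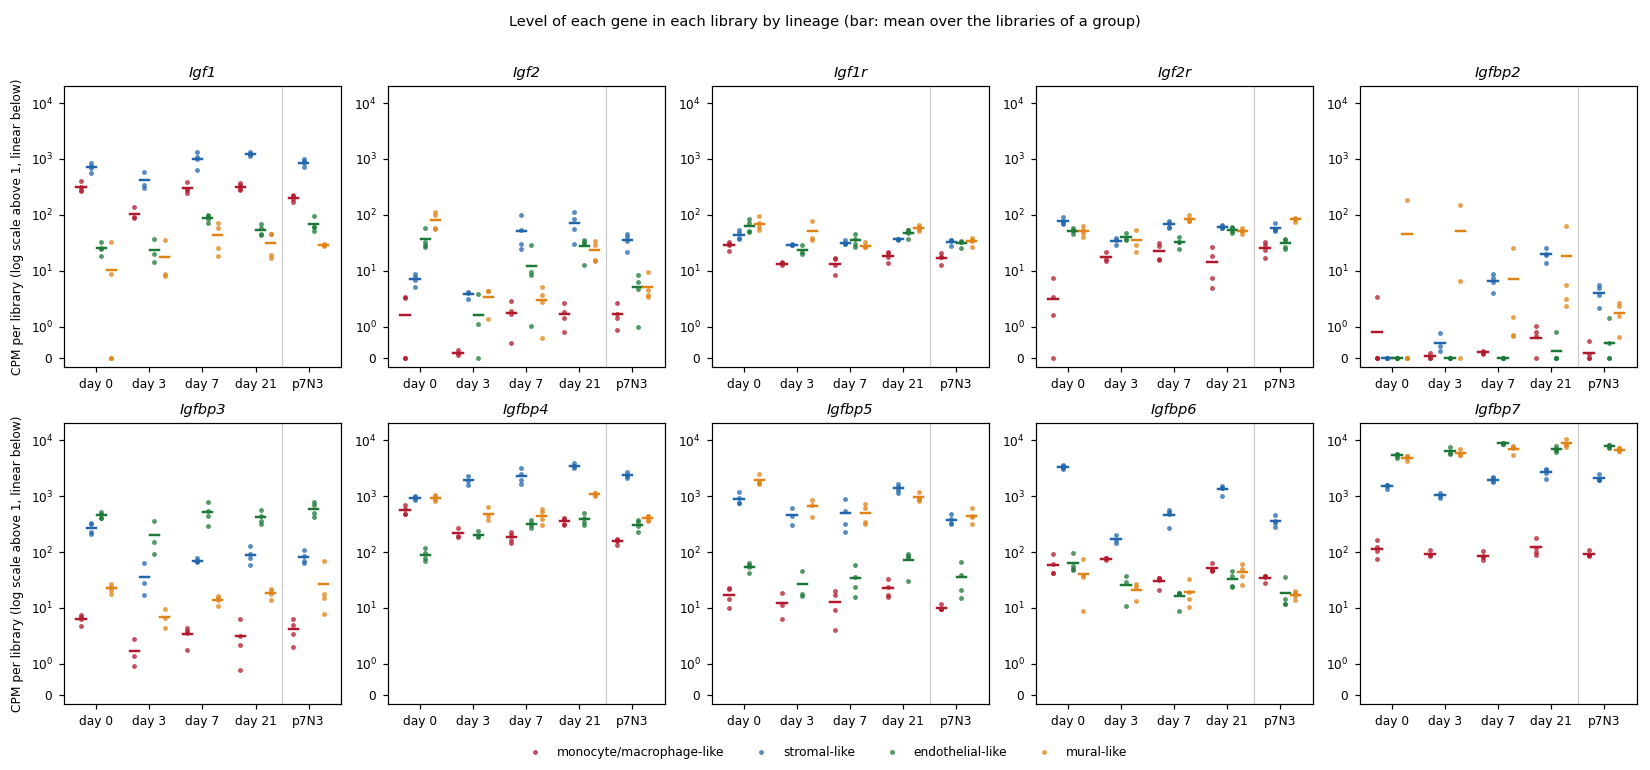
CPM of the 10 genes (vertical axes, log scale above 1 and linear below) in each library by group, with 1 colour per lineage. Each point is 1 library and each bar is a group mean. Igfbp6 in stromal-like cells drops from between 3042 and 3605 CPM at day 0 to between 142 and 199 CPM at day 3, while Igfbp4 in the same cells lies above its day 0 range in every later library.

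Transcripts released from broken cells enter every droplet and set a background. T/NK lymphocyte-like cells were taken as a reference for it. They held 32.2 CPM of Igf1, 136 CPM of Igfbp4, 34.9 CPM of Igfbp6, 16.2 CPM of Igfbp5 and 173 CPM of Igfbp7 (means of 13 libraries). Their Igf1 was uneven, from 21.8 to 181 CPM among the day 7 libraries. Whether these cells express any of these genes themselves, Igfbp4 above all, was not tested. With every cell thinned to 1500 UMIs, Igf1 was seen in 58.4% of stromal-like and 20.8% of monocyte/macrophage-like cells against 4.04% of T/NK lymphocyte-like cells (unthinned 89.3%, 46% and 9.31%, at median depths of 14160.0, 6237 and 4147 UMIs per cell). In macrophages Igf1 stood above that T/NK lymphocyte-like background. Plasmacytoid dendritic cell-like cells held more of it, at 25.3, 276, 262 and 34.7 CPM in day 7 replicates 1 to 4. Macrophages held 249, 293, 385 and 281 CPM in the same libraries. Macrophage Igfbp4 was also above T/NK lymphocyte-like cells by share (22.7% against 14%). By level its 299 CPM was near the 294 ± 332 CPM of plasmacytoid dendritic cell-like cells (SD, n = 8). It was above the 60.4 CPM of dendritic cell-like cells. Igfbp6 (7.02% against 3.49%) held 48.9 CPM in macrophages against 58.6 CPM in B lymphocyte-like (4 libraries), 52.1 CPM in plasmacytoid dendritic cell-like (8 libraries) and 48.8 CPM in dendritic cell-like cells (16 libraries), so its macrophage level was not above that of other immune cells. Igfbp7 (13% against 12.7%) and Igfbp5 (1.78% against 1.84%) were at the T/NK lymphocyte-like share. The macrophage levels of Igfbp5, Igfbp6 and Igfbp7 were read as background. Thinning left out 34 macrophages, 67 stromal-like, 111 endothelial-like, 11 mural-like and 4 T/NK lymphocyte-like cells. The 1 library deposited with its empty droplets (day 0 replicate 1, 367011 barcodes of at most 100 UMIs) held 1360 CPM of Igfbp7, 944 CPM of Igfbp6, 286 CPM of Igfbp4 and 140 CPM of Igf1 in them. It held 14.5 CPM of Igf1r and 26.4 CPM of Igf2r there. Over the whole lineage, macrophage Igf1r (18.5 CPM) and Igf2r (16.6 CPM) were near the 16.9 and 18.4 CPM of T/NK lymphocyte-like cells. Those T/NK lymphocyte-like levels rest on 29 and 43 UMIs. Macrophage changes in both receptors over the lineage are thus changes at a low level, near that of T/NK lymphocyte-like cells. Igf2r was higher in the macrophage cluster led by Mmp12 and Arg1, at 45.7 ± 7.81 CPM at day 3 (SD, n = 3) and 48.3 ± 11.6 CPM at day 7 (n = 4).

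Stromal-like cells held most of the Igf1 transcripts of the site throughout, at 80.2 ± 5.90% of all Igf1 UMIs at day 0 (SD, n = 4), 70.3 ± 5.74% at day 3 (n = 3) and 87.5 ± 2.08% at day 7 (n = 4). Macrophages held 9.16 ± 2.40%, 26.1 ± 4.85% and 9.27 ± 3.05% on the same days. At day 3 macrophages made up 64.7 ± 2.25% of the cells. For Igf2 the share held by vessels was smaller later and that held by stroma larger. Endothelial-like cells held 55.1 ± 8.28% of its UMIs at day 0 and 2.08 ± 1.98% at day 7, and stromal-like cells 13.5 ± 4.89% and 93.7 ± 2.41%. By day 21 the tendon/cartilage cluster held 27.1 ± 2.22% of Igf2 UMIs and 20.4 ± 2.06% of Igf1 UMIs. Endothelial-like cells held 60.5 ± 6.54% of Igfbp7 UMIs at day 0 and 23.5 ± 7.07% at day 7. These shares depend on how many cells of each type were recovered, and cell recovery and tissue content cannot be told apart here.

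Changes with time were tested in each lineage with edgeR's quasi-likelihood test on UMIs summed per library, with p-values adjusted by the Benjamini-Hochberg method over all genes tested and a threshold of 0.05. Days 3, 7 and 21 were each compared with the same 4 day 0 libraries, so the 3 comparisons share their controls. In stromal-like cells 9 of 9 members tested passed at day 3, where 66% of all genes tested passed. Of these 1 was higher and 8 lower, against 33.2% of all genes higher and 32.8% lower. At day 7 there were 9 of 10 (54.6% of all genes), 5 higher and 4 lower (28% and 26.6% of all genes). At day 21 there were 9 of 10 (38.3%), 6 higher and 3 lower (19.2% and 19.1%). The median log2 fold change of the members tested in stromal-like cells was -0.74 at day 3, 0.10 at day 7 and 0.76 at day 21, against 0.00, 0.01 and -0.01 over all genes, and the last 2 member medians were the same with Igfbp2 set at the bound given for it later. In endothelial-like cells 7 of 9 passed at day 3 (56.8% of all genes), 2 higher and 5 lower (29% and 27.8%). At day 7 there were 8 of 9 (59.1%), 3 higher and 5 lower (29.8% and 29.3%), and at day 21 there were 4 of 9 (25.5%), 3 higher and 1 lower (13.4% and 12.1%). Endothelial-like member medians were -0.87, -0.64 and 0.11 against -0.03, -0.01 and 0.00 over all genes. In mural-like cells 4 of 6 passed at day 3 (57.1%), 1 higher and 3 lower (28.2% and 28.9%). At day 7 there were 7 of 9 (46.6%), 2 higher and 5 lower (25% and 21.7%), and at day 21 there were 3 of 9 (31.7%), 1 higher and 2 lower (15.8% and 15.9%). Mural-like member medians were -0.73, -1.16 and -0.09 against 0.03, 0.09 and 0.02. In monocyte/macrophage-like cells 4 of 6 passed at day 3 (52.8%), 1 higher and 3 lower (25.2% and 27.6%). At day 7 there were 3 of 8 (35.5%), 1 higher and 2 lower (18.4% and 17.1%), and at day 21 there was 1 of 6 (26.3%), which was lower (13.6%). Macrophage member medians were -0.65, -0.39 and 0.05 against -0.01 on each day. So many genes differed between days that a passing member is not unusual in itself. Members left untested had too few UMIs for the filter, which a member can also pass through the group where it is high, so these counts and medians cover tested members only. Stromal-like Igfbp2 at days 7 and 21 and macrophage Igf2r at day 7 passed it in that way and are counted among the higher members. Mural-like Igf2 on all 3 days and endothelial-like Igf2 at days 3 and 7 passed it only through day 0. So did stromal-like Igf2 and macrophage Igf1r at day 3. They are counted among the lower members. At day 3 the summed level of 6 granulocyte markers within stromal-like, endothelial-like and mural-like cells was 1215 to 2420 CPM, against 18.9 to 105 CPM at day 0. Within macrophages it was 1729 to 2690 CPM at day 3 against 16.9 to 76.7 CPM at day 0, and the summed level of 12 stromal markers was 908.5 to 1588 CPM at day 3 against 544 to 811 CPM at day 0. Both sums were thus higher at day 3, as was macrophage Igfbp6, whereas macrophage Igf1, Igf1r and Igfbp4 were lower. The part of such markers in the results was not tested.

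**Figure D2:**
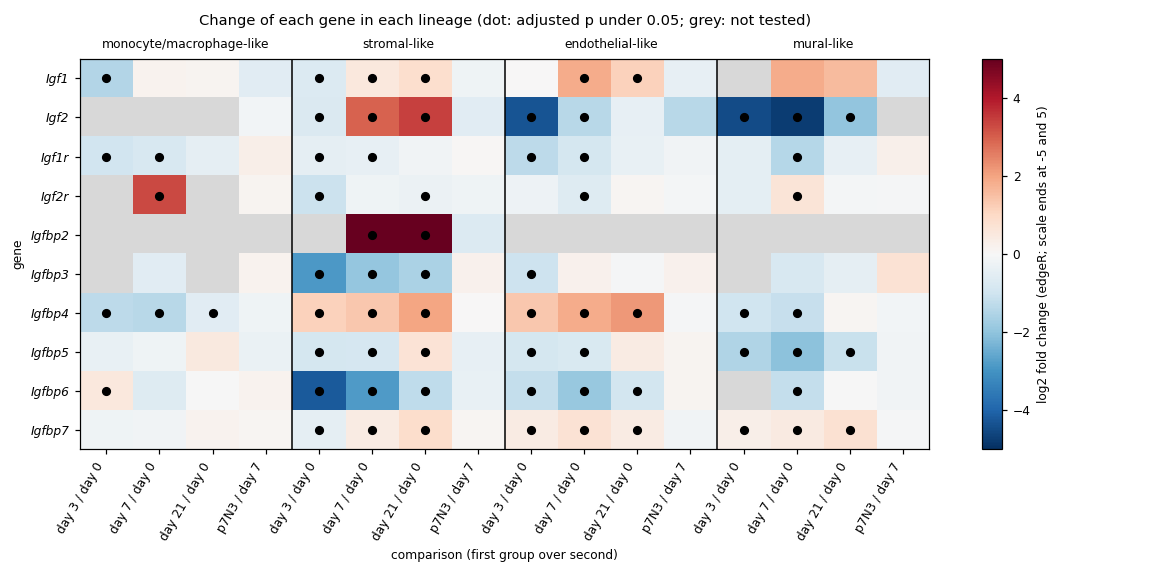
Log2 fold changes of the 10 genes against day 0 (days 3, 7 and 21) and of p7N3 against day 7, by lineage; colour gives the fold change (scale ends at -5 and 5), a dot shows an adjusted p under 0.05 and grey cells were not tested. In stromal-like cells Igfbp6 and Igfbp3 are lower and Igfbp4 is higher on all 3 days, and no cell of the p7N3 columns carries a dot. The colour of Igfbp2 in stromal-like cells is a fitted value against a group with no UMIs and is not a bound.

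Igf1, the ligand made by both stroma and macrophages, fell at day 3 in both and was higher than at day 0 in the stroma by day 21. In stromal-like cells its level was 557, 677, 754 and 832 CPM in the day 0 libraries, 345, 588 and 305 CPM at day 3, 1306, 1003, 1094 and 635 CPM at day 7, and 1116, 1234, 1308 and 1204 CPM at day 21. The day 21 libraries all lay above day 0, whereas days 3 and 7 overlapped it by 1 library each. Stromal-like Igf1 fell by 0.68 ± 0.20 on the log2 scale at day 3 (SE, edgeR adjusted p = 0.00875) and rose by 0.53 ± 0.19 at day 7 (adjusted p = 0.0332) and 0.83 ± 0.12 at day 21 (adjusted p = 0.000174). The day 7 call was lost without any of 4 single libraries (day 0 replicate 1 or 2, or day 7 replicate 1 or 3), with adjusted p from 0.0674 to 0.105, and at the finer clustering resolution (adjusted p = 0.098). Within the cluster led by Myoc and Inmt the differences were -0.20 ± 0.16 at day 7 and -0.14 ± 0.14 at day 21 (adjusted p = 0.442 and 0.667).

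In macrophages Igf1 stood at 264, 281, 311 and 405 CPM at day 0 and at 90.9, 137 and 88.9 CPM at day 3, with no overlap. It fell by 1.48 ± 0.18 on the log2 scale (edgeR adjusted p = 2.36e-05). At day 7 it was 249, 293, 385 and 281 CPM and at day 21 it was 276, 374, 336 and 286 CPM, overlapping day 0 on both days, and neither difference passed (0.16 ± 0.16 and 0.13 ± 0.15, adjusted p = 0.462 and 0.547). Macrophage clusters held very different amounts at the same day. At day 3, the cluster led by Chil3 and Gm9733, which held 44.2% of the macrophages, had 18.5 ± 8.41 CPM of Igf1 (SD, n = 3), and that led by Npl and Cd163 had 184 ± 11.2 CPM (n = 3). The cluster led by Cd209f and Cd209g, which held 71.8% of the day 0 macrophages and 1.34% at day 3, had 422 ± 88.5 CPM at day 0 (n = 4) and 381 ± 14.1 CPM in the 2 day 3 libraries with enough cells. Within that cluster Igf1 rose by 0.47 ± 0.14 on the log2 scale from day 0 to day 7 (edgeR adjusted p = 0.0188).

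Endothelial-like Igf1 was low at 24.6, 18.5, 32.4 and 25.1 CPM at day 0 and reached 94.6, 102, 82.8 and 71.3 CPM at day 7, with no overlap. It rose by 1.84 ± 0.16 on the log2 scale at day 7 (edgeR adjusted p = 1.18e-07) and by 1.13 ± 0.19 at day 21 (adjusted p = 0.000845), when it was 44.1, 58.8, 68.1 and 45.9 CPM. Over the same days the 12 stromal markers summed to 698 to 928 CPM in endothelial-like cells at day 0, 1286 to 2576 CPM at day 7 and 1634 to 2831 CPM at day 21. At day 7 T/NK lymphocyte-like cells held 21.8, 62.1, 181 and 22.3 CPM of Igf1 in replicates 1 to 4. Erythrocyte-like cells held 133 and 187 CPM in day 7 replicates 2 and 3. Endothelial-like cells thus lay below the T/NK level in replicate 3 and below the erythrocyte-like level in replicates 2 and 3. The part of stromal transcripts and of background in this rise was not tested. Igf1 within the cluster led by Tmem252 and Selp rose by 0.80 ± 0.24 at day 7 (adjusted p = 0.0129) and differed by 0.32 ± 0.29 at day 21 (adjusted p = 0.488). Mural-like Igf1 stood at a mean of 10.3 CPM at day 0 and 43.2 CPM at day 7, a difference of 1.86 ± 0.78 that did not pass (adjusted p = 0.0568).

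Igf2, the fetal-type ligand expressed from the paternal allele, fell in stroma and in both vascular lineages at day 3. At day 7 it rose in stroma and fell in both vascular lineages, and at day 21 it rose in stroma and fell in mural cells. Stromal-like cells held 5.2, 8.95, 7.64 and 6.76 CPM at day 0, 100.2, 30.5, 54.4 and 24.7 CPM at day 7 and 55.7, 30.0, 113 and 85.8 CPM at day 21. Every library of both later days lay above every day 0 library. The rise was 2.95 ± 0.56 on the log2 scale at day 7 (edgeR adjusted p = 0.000627) and 3.43 ± 0.46 at day 21 (adjusted p = 7.99e-05), or 7.71-fold and 10.8-fold. Igf2 was too low for the fit within the cluster led by Myoc and Inmt, where it stood at 7.14 ± 1.59 CPM at day 0, 67.0 ± 84.7 CPM at day 7 (7.65 to 192 CPM) and 9.85 ± 5.90 CPM at day 21 (SD, n = 4 each). The cluster led by Sfrp4 and Gdf10 held 149 ± 58.5 CPM at day 7 and 86.2 ± 46.8 CPM at day 21. At day 3 stromal-like Igf2 was 4.06, 4.16 and 3.19 CPM, a fall of 0.74 ± 0.27 on the log2 scale (adjusted p = 0.0265) that was lost with DESeq2 (adjusted p = 0.105), without a filter on low counts (adjusted p = 0.0984), with a replicate block (adjusted p = 0.0734), with replicates 1 to 3 only (adjusted p = 0.0557) and with the tendon/cartilage cluster added (adjusted p = 0.0503). It was also lost without day 0 replicate 2, 3 or 4 or day 3 replicate 1 or 3 (adjusted p from 0.0538 to 0.0982). Stromal-like Igf2 passed the filter at day 3 only through day 0, so the edgeR call adds no support to the levels.

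Mural-like cells held 97.9, 114, 56.5 and 58.5 CPM of Igf2 at day 0, 1.35, 4.40 and 4.41 CPM at day 3, 5.24, 0.633, 2.76 and 3.63 CPM at day 7, and 15.3, 28.5, 33.8 and 15.1 CPM at day 21. No later library reached the lowest day 0 library. Mural-like Igf2 fell by 4.47 ± 0.45, 4.74 ± 0.40 and 1.95 ± 0.33 on the log2 scale on the 3 days (edgeR adjusted p = 8.58e-07, 2.08e-08 and 0.000232). Igf2 passed the filter on low counts there only through day 0, so these p-values add no support to the levels. Within the smooth-muscle-type cluster led by Pln and Myh11 it fell too, by 3.43 ± 0.51 at day 7 and 1.21 ± 0.35 at day 21 (adjusted p = 0.000349 and 0.0331). In endothelial-like cells Igf2 was 58.3, 26.4, 32.4 and 29.1 CPM at day 0 and 1.10, 3.82 and 0 CPM at day 3, and it fell by 4.33 ± 0.61 on the log2 scale (adjusted p = 4.78e-05). It fell by 1.39 ± 0.47 at day 7 (29.3, 1.05, 8.40 and 9.66 CPM, overlapping day 0, adjusted p = 0.0192) and did not pass at day 21. The day 7 endothelial call was lost with DESeq2 (adjusted p = 0.13) and without day 0 replicate 1 or day 7 replicate 3 (adjusted p = 0.0915 and 0.0536). Endothelial-like Igf2 passed the filter at days 3 and 7 only through day 0, so its p-values add no support either. A direct test of the difference between lineages, with the library as a block, gave a change in mural-like minus stromal-like cells of -7.74 on the log2 scale at day 7 (edgeR adjusted p = 1.55e-11). Igf2 passed the filter of that test through the groups where it was high. Transcripts of 12 stromal markers in mural-like cells summed to 1226 to 2734 CPM at day 0 and 7439 to 13250 CPM at later times, in the opposite direction to Igf2. In macrophages Igf2 was at most 3.38 CPM in any library, and it was tested neither at day 3, day 7 nor day 21.

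The signalling receptor Igf1r fell in each of the 4 lineages on at least 1 day. Endothelial-like cells held 71.0, 84.4, 52.2 and 48.7 CPM at day 0, 19.9, 29.3 and 22.1 CPM at day 3 and 30.7, 36.6, 27.0 and 45.3 CPM at day 7. Neither later day overlapped day 0. Endothelial-like Igf1r fell by 1.3 ± 0.25 at day 3 and 0.87 ± 0.19 at day 7 on the log2 scale (edgeR adjusted p = 0.000541 and 0.000834). Mural-like Igf1r was 59.6, 52.6, 72.6 and 94.5 CPM at day 0 and 26.2, 26.6, 32.4 and 27.6 CPM at day 7, with no overlap, and fell by 1.44 ± 0.24 (adjusted p = 7e-05). Within the cluster led by Pln and Myh11 the difference was -0.25 ± 0.32 (adjusted p = 0.606). In stromal-like cells Igf1r fell by 0.46 ± 0.14 at day 3 (adjusted p = 0.00919) and 0.43 ± 0.13 at day 7 (adjusted p = 0.013). The day 7 call was lost without day 0 replicate 4 (adjusted p = 0.0585), with replicates 1 to 3 only (adjusted p = 0.103) and at the finer clustering resolution (adjusted p = 0.0647), and within the cluster led by Myoc and Inmt the difference was 0.06 (adjusted p = 0.911). Macrophage Igf1r had a mean level near that of T/NK lymphocyte-like cells. It was 22.4, 33.2, 30.4 and 29.0 CPM at day 0 and 12.6, 13.6 and 14.2 CPM at day 3. The fall was 0.94 ± 0.22 (edgeR adjusted p = 0.0032). Macrophage Igf1r passed the filter on low counts at day 3 only through day 0, so that p-value adds no support to the levels. Its day 7 fall of 0.80 ± 0.30 (adjusted p = 0.0485) was lost with DESeq2, with no filter, with replicates 1 to 3 only, without the highest doublet scores and at the finer resolution, and without any 1 day 0 library or day 7 replicate 3 (adjusted p from 0.0526 to 0.153 over these). Mural-like Igf1r did not pass at day 3 (adjusted p = 0.216). No difference in Igf1r passed at day 21 in any of the 4 lineages.

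Igf2r, the receptor that clears Igf2, fell in endothelial-like cells and rose in mural-like cells at day 7, and it fell in stromal-like cells at days 3 and 21. Macrophages held 1.6, 7.39, 3.38 and 0 CPM at day 0, 15.3, 16.4 and 21.5 CPM at day 3 and 27.4, 15.9, 16.2 and 31.6 CPM at day 7. Every day 3 and day 7 library lay above every day 0 library, but the day 0 values rest on 1, 2, 1 and 0 UMIs. The cluster led by Mmp12 and Arg1 held 45.7 ± 7.81 CPM at day 3 (SD, n = 3) and 48.3 ± 11.6 CPM at day 7 (n = 4). It made up 0.522% of macrophages at day 0 and 23.8% at day 7. Igf2r in the cluster led by Cd209f and Cd209g was 1.14 ± 2.27 CPM at day 0 and 3.35 ± 4.85 CPM at day 7 (n = 4 each). In the 2 day 3 libraries with enough cells it was 9.71 ± 0.446 CPM there. The part of cluster make-up in the rise was not tested. Macrophage Igf2r passed the filter at day 7 only through its level that day, so the test adds no support to those levels. The edgeR difference was 3.30 ± 0.65 on the log2 scale (adjusted p = 0.000671). At days 3 and 21 macrophage Igf2r did not pass the filter on low counts. With the filter lifted, it was higher by 3.00 at day 3 (edgeR adjusted p = 3.25e-08) and by 2.59 at day 21 (adjusted p = 0.000199). The day 21 libraries held 4.99, 7.36, 26.1 and 18.4 CPM and overlapped day 0. In stromal-like cells it was 90.7, 79.3, 72.6 and 69.9 CPM at day 0 and 29.1, 39.0 and 36.0 CPM at day 3, and fell by 1.09 ± 0.13 (adjusted p = 6e-06). It fell by 0.31 ± 0.10 at day 21 (adjusted p = 0.0314), a call lost without day 0 replicate 1 or day 21 replicate 1 or 4, with DESeq2, with no filter, with a replicate block and with replicates 1 to 3 only (adjusted p from 0.0602 to 0.131). Endothelial-like Igf2r fell by 0.64 ± 0.16 at day 7 (adjusted p = 0.00262), while mural-like Igf2r was higher, at 79.3, 79.1, 84.8 and 100.2 CPM against 63.9, 52.6, 48.4 and 40.5 CPM at day 0. The mural-like rise was 0.64 ± 0.21 (adjusted p = 0.0196) and was lost without day 0 replicate 3 or 4 (adjusted p = 0.0529 and 0.0762) and with replicates 1 to 3 only (adjusted p = 0.14). In the cluster led by Pln and Myh11 Igf2r was 44.7 ± 6.165 CPM at day 0 and 48.3 ± 27.1 CPM at day 7 (SD, n = 4 each). The cluster led by Higd1b and Rgs5 held 89.1 ± 11.6 CPM at day 7 (n = 4). Its day 0 level of 44.85 CPM rests on 3 UMIs in 2 libraries. The part of cluster make-up in the mural rise was not tested.

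Igfbp6 showed the largest fall of the 9 members tested in stromal-like cells at day 3. Its level was 3042, 3209, 3421 and 3605 CPM at day 0, 142, 199 and 162 CPM at day 3, 519, 484, 569 and 272 CPM at day 7, and 1384, 1499.5, 1406 and 1001 CPM at day 21. Every later library lay below every day 0 library, and the day 21 libraries all lay above those of days 3 and 7. The fall was 4.22 ± 0.14 at day 3 (edgeR adjusted p = 1.07e-10), 2.83 ± 0.20 at day 7 (adjusted p = 1.54e-07) and 1.28 ± 0.12 at day 21 (adjusted p = 4.45e-06) on the log2 scale. The fall was not seen at that size within the cluster that filled the stroma at day 0. In the cluster led by Myoc and Inmt, Igfbp6 was 3334 ± 267 CPM at day 0, 2786 ± 528 CPM at day 7 and 2647 ± 203 CPM at day 21 (SD, n = 4 each), differences of -0.17 ± 0.13 and -0.33 ± 0.10 on the log2 scale (SE, adjusted p = 0.452 and 0.0547). That cluster made up 3.54% of stromal-like cells at day 7 and 19.1% at day 21. The cluster led by Prg4 and Pla2g2e held 140 ± 22.1 CPM at day 3 and the cluster led by Sfrp4 and Gdf10 1112 ± 293 CPM at day 7. Igfbp6 also fell in endothelial-like cells on all 3 days, by 1.19 ± 0.35, 1.91 ± 0.24 and 0.92 ± 0.25, from levels of 46.8 to 96.4 CPM at day 0, below the 944 CPM in the empty droplets of a day 0 library. The day 3 fall was lost without day 3 replicate 1 and the day 21 fall without day 0 replicate 1 (adjusted p = 0.0587 and 0.0548), and neither passed within the cluster led by Tmem252 and Selp (adjusted p = 0.176 and 0.218). The day 21 fall was also lost with the highest doublet scores removed (adjusted p = 0.0517) and within the cluster led by Timp4 and Aqp7 (-0.80, adjusted p = 0.0895). Mural-like Igfbp6 fell by 1.18 ± 0.47 at day 7 (edgeR adjusted p = 0.0475), where day 0 held 38.3, 35.1, 76.6 and 9.0 CPM. This call was lost with DESeq2 (adjusted p = 0.131) and without day 0 replicate 1, 2 or 3 (adjusted p from 0.0664 to 0.517). Mean Igfbp6 over libraries was 31.4 CPM in endothelial-like and 28.5 CPM in mural-like cells, against 34.9 CPM in T/NK lymphocyte-like cells. The part of background in the endothelial-like and mural-like falls was not tested. In macrophages, where its level was read as background, Igfbp6 rose by 0.54 ± 0.19 at day 3 (adjusted p = 0.0288), with overlapping values and a call lost without day 0 replicate 1 (adjusted p = 0.1) or day 3 replicate 1 (adjusted p = 0.0608).

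Igfbp3 fell with Igfbp6 in the stroma and also fell inside its starting cluster. Stromal-like cells held 317, 211, 328 and 228 CPM at day 0, 27.5, 17.0 and 62.9 CPM at day 3, 77.1, 70.0, 66.1 and 68.4 CPM at day 7 and 91.3, 127, 79.7 and 57.7 CPM at day 21. No later library reached day 0. The fall was 2.88 ± 0.34, 1.94 ± 0.15 and 1.59 ± 0.21 on the log2 scale (edgeR adjusted p = 6.75e-06, 2.72e-07 and 6.75e-05). Within the cluster led by Myoc and Inmt it fell by 1.66 ± 0.27 at day 7 and 1.04 ± 0.21 at day 21 (adjusted p = 0.00032 and 0.0075). Endothelial-like cells, the richest source, went from 488, 509.6, 407 and 409 CPM at day 0 to 90.4, 154 and 358 CPM at day 3, with no overlap. That fall of 1.04 ± 0.31 (adjusted p = 0.0119) was lost with DESeq2 (adjusted p = 0.088) and within the cluster led by Tmem252 and Selp (-0.67 ± 0.35, adjusted p = 0.119). At days 7 and 21 endothelial-like Igfbp3 did not pass. It was higher at day 7 within the cluster led by Tmem252 and Selp, by 0.63 ± 0.24 (adjusted p = 0.048).

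Igfbp4 rose in stroma and endothelium and fell in macrophages. Stromal-like cells held 966, 922, 847 and 992 CPM at day 0, 1890.3, 2298 and 1576 CPM at day 3, 3226, 1947, 2507 and 1642 CPM at day 7, and 3892, 3182, 3473 and 3498 CPM at day 21. Every later library lay above every day 0 library. The rise was 1.13 ± 0.12, 1.34 ± 0.18 and 1.96 ± 0.09 on the log2 scale (edgeR adjusted p = 2.13e-06, 3.45e-05 and 1.69e-08), the last 3.9-fold. Within the cluster led by Myoc and Inmt it rose by 0.67 ± 0.13 at day 7 and 0.92 ± 0.09 at day 21 (adjusted p = 0.00175 and 1.78e-05). At day 7 the cluster led by Gzme and Gzmc held 5514 ± 1484 CPM (SD, n = 4) and that led by Sfrp4 and Gdf10 3884 ± 443 CPM (n = 4).

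Endothelial-like Igfbp4 was 94.9, 68.5, 117 and 78.6 CPM at day 0, 235, 187 and 195 CPM at day 3, 325, 306, 377 and 264 CPM at day 7, and 405, 306, 346 and 498 CPM at day 21, with no overlap of any later day with day 0. The day 0 values lay below the 136 CPM of T/NK lymphocyte-like cells. Endothelial-like Igfbp4 rose by 1.33 ± 0.16, 1.85 ± 0.15 and 2.17 ± 0.18 (edgeR adjusted p = 1.35e-05, 2.77e-08 and 1.48e-05). The 12 stromal markers in these cells summed to 1026 to 1610 CPM at day 3 and to the levels given with Igf1 on the other days, all above day 0, and their part in this rise was not tested. Inside the cluster led by Tmem252 and Selp, where day 0 already stood at 232 ± 84.7 CPM, the day 3 difference was -0.03 ± 0.23 (adjusted p = 0.929) and the day 7 and day 21 rises were 0.54 ± 0.19 and 1.24 ± 0.20 (adjusted p = 0.0334 and 0.000672). Inside the cluster led by Timp4 and Aqp7 the day 21 rise was 1.82 ± 0.20 (adjusted p = 2.42e-05). Macrophage Igfbp4 was 479.6, 698, 486 and 592 CPM at day 0, 189, 269 and 190.2 CPM at day 3 and 198, 165, 226 and 143 CPM at day 7, with no overlap. It fell by 1.29 ± 0.16, 1.40 ± 0.16 and, at day 21, 0.55 ± 0.14 (adjusted p = 2.48e-05, 2.46e-06 and 0.00833), the last lost with replicates 1 to 3 only (adjusted p = 0.0522). Within the cluster led by Cd209f and Cd209g the fall was 0.45 ± 0.16 at day 7 (adjusted p = 0.0396) and the day 21 difference was 0.01 ± 0.14 (adjusted p = 0.964). Mural-like Igfbp4 fell by 0.98 ± 0.18 at day 3 and 1.16 ± 0.18 at day 7 (adjusted p = 0.000266 and 2.96e-05) and stood at 1007 to 1128 CPM at day 21 against 825 to 1030.2 CPM at day 0. In the cluster led by Pln and Myh11 the day 7 difference was -0.32 ± 0.17 (adjusted p = 0.184). Tested directly with the library as a block, the day 7 change in stromal-like cells exceeded that in macrophages by 2.47 on the log2 scale (adjusted p = 3.03e-12) and the change in mural-like minus stromal-like cells was -2.51 (adjusted p = 8.07e-12).

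At day 21 Igfbp5 was higher than at day 0 in the stroma and lower in mural cells. Mural-like cells held 1801, 1623, 2459.6 and 1728 CPM at day 0, 868, 706 and 422 CPM at day 3, 715, 342, 604 and 317 CPM at day 7 and 887, 904, 1173 and 827 CPM at day 21. No later library reached day 0. The fall was 1.52 ± 0.22, 2.04 ± 0.22 and 1.10 ± 0.14 on the log2 scale (edgeR adjusted p = 2.82e-05, 4.92e-07 and 1.86e-05). In the cluster led by Pln and Myh11 the level was 1934 ± 381 CPM at day 0, 1776 ± 550.2 CPM at day 7 and 1781 ± 336 CPM at day 21 (SD, n = 4 each), differences of -0.16 and -0.19 (adjusted p = 0.611 and 0.454). In the cluster led by Higd1b and Rgs5 it was 1795 ± 558 CPM in the 2 day 0 libraries with enough cells and 304 ± 74.1 CPM at day 7 (n = 4), and the fit needed 3 libraries a side. Stromal-like Igfbp5 was 757, 1180.5, 742 and 911 CPM at day 0, 443, 613 and 305 CPM at day 3, 898, 312, 533 and 225 CPM at day 7 and 1475, 1287, 1637 and 1132 CPM at day 21. It fell by 0.88 ± 0.20 at day 3 (adjusted p = 0.00165) and rose by 0.68 ± 0.15 at day 21 (adjusted p = 0.00251), a rise lost with the tendon/cartilage cluster added (0.33, adjusted p = 0.0885). The day 7 fall of 0.84 ± 0.33 (adjusted p = 0.0444) was lost without any 1 library except day 7 replicate 1, and with DESeq2, RLE size factors, replicates 1 to 3 only, the highest doublet scores removed, the finer resolution or the tendon/cartilage cluster added (adjusted p from 0.05 to 0.145). It was reversed inside the cluster led by Myoc and Inmt, where Igfbp5 rose by 2.04 ± 0.24 at day 7 and 1.25 ± 0.14 at day 21 (adjusted p = 1.3e-05 and 3.3e-05). Endothelial-like Igfbp5 fell by 0.87 ± 0.29 at day 3 and 0.78 ± 0.29 at day 7 with overlapping values (adjusted p = 0.0215 and 0.0292), with the day 3 call lost without day 0 replicate 1 or day 3 replicate 2 or 3 (adjusted p from 0.0531 to 0.109) and without the highest doublet scores (adjusted p = 0.393). The day 7 call was lost without day 0 replicate 1 or 3 or day 7 replicate 1 or 2 (adjusted p from 0.0605 to 0.105) and with DESeq2 (adjusted p = 0.0715). Inside the cluster led by Tmem252 and Selp the falls were 2.90 ± 0.34 and 2.72 ± 0.32 (adjusted p = 1.36e-05 and 3.17e-06).

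Igfbp7 rose in both vascular lineages on all 3 days. Endothelial-like cells held 4878, 5745, 5252 and 5741 CPM at day 0, 5774, 7698 and 5876 CPM at day 3, 8603, 9056, 8949 and 8568 CPM at day 7 and 6908, 6262, 6789.5 and 7954 CPM at day 21. All later libraries lay above day 0. The rise was 0.39 ± 0.10, 0.73 ± 0.07 and 0.42 ± 0.10 on the log2 scale (edgeR adjusted p = 0.00497, 3.42e-07 and 0.0063), and within the cluster led by Tmem252 and Selp the day 3 and day 21 differences of 0.33 and 0.38 did not pass (adjusted p = 0.0934 and 0.0923). Mural-like Igfbp7 was 4214, 5220.4, 4895 and 5224 CPM at day 0 and 8657, 7594, 8318 and 10377 CPM at day 21, and rose by 0.30 ± 0.11, 0.44 ± 0.12 and 0.77 ± 0.10 on the 3 days (adjusted p = 0.0282, 0.00663 and 3.02e-05). The day 3 mural call was lost without any 1 of 4 single libraries (day 0 replicate 1, 2 or 3, or day 3 replicate 2), with adjusted p from 0.0596 to 0.18. The estimate within the cluster led by Pln and Myh11 was 1.17 ± 0.18 at day 7 and 1.06 ± 0.14 at day 21 (adjusted p = 0.000351 and 0.000386). Igfbp7 in the cluster led by Higd1b and Rgs5 was 7466 ± 3265 CPM in the 2 day 0 libraries with enough cells. There it was 5271 ± 608 CPM at day 3 (n = 3), 6468 ± 769 CPM at day 7 and 7839 ± 485 CPM at day 21 (SD, n = 4 each). No fit was made in that cluster. Stromal-like Igfbp7 fell by 0.46 ± 0.10 at day 3 (adjusted p = 0.000863) and rose by 0.40 ± 0.10 at day 7 and 0.87 ± 0.12 at day 21 (adjusted p = 0.00454 and 7.51e-05). In the cluster led by Myoc and Inmt the difference was -0.07 at day 7 (adjusted p = 0.833) and the day 21 rise was 0.49 ± 0.09 (adjusted p = 0.00303). At day 21 stromal-like Igfbp7 was 3057, 2619.7, 2016 and 2969 CPM against 1353 to 1588 CPM at day 0.

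Igfbp2, a binding protein with a cell-attachment motif, had 0 UMIs in stromal-like cells at day 0 among 6060745, which allows up to 0.495 CPM over the group. It was 0.213, 0.392 and 0.798 CPM at day 3, 6.23, 7.51, 8.63 and 3.94 CPM at day 7 and 13.9, 20.05, 19.2 and 25.4 CPM at day 21. Against that limit the level was at least 13.3-fold higher at day 7 and at least 39.7-fold higher at day 21 (edgeR adjusted p = 0.000302 and 1.3e-05, 3 counts over the group taken as the floor). With 0 UMIs at day 0, Igfbp2 could pass the filter only through the later group, so these p-values add no support to the levels. Igfbp2 within the cluster led by Myoc and Inmt had 0 UMIs at day 0, 2 UMIs (1.42 CPM) at day 7 and 1 UMI (0.351 CPM) at day 21. At day 21 the cluster led by C1qtnf3, Zfp185 and Scx held 56.6 ± 21.2 CPM (SD, n = 4), against 7.98 ± 5.89 CPM in that led by Sfrp4 and Gdf10. In mural-like cells single libraries carried most of it: 184 CPM in day 0 replicate 4 with 0 CPM in the other day 0 libraries, 149 CPM in day 3 replicate 3, 26.0 CPM in day 7 replicate 2 and 63.0 CPM in day 21 replicate 4. Endothelial-like cells held 0 UMIs at days 0, 3 and 7, which allows up to 0.617, 1.18 and 0.385 CPM.

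**Figure D3:**
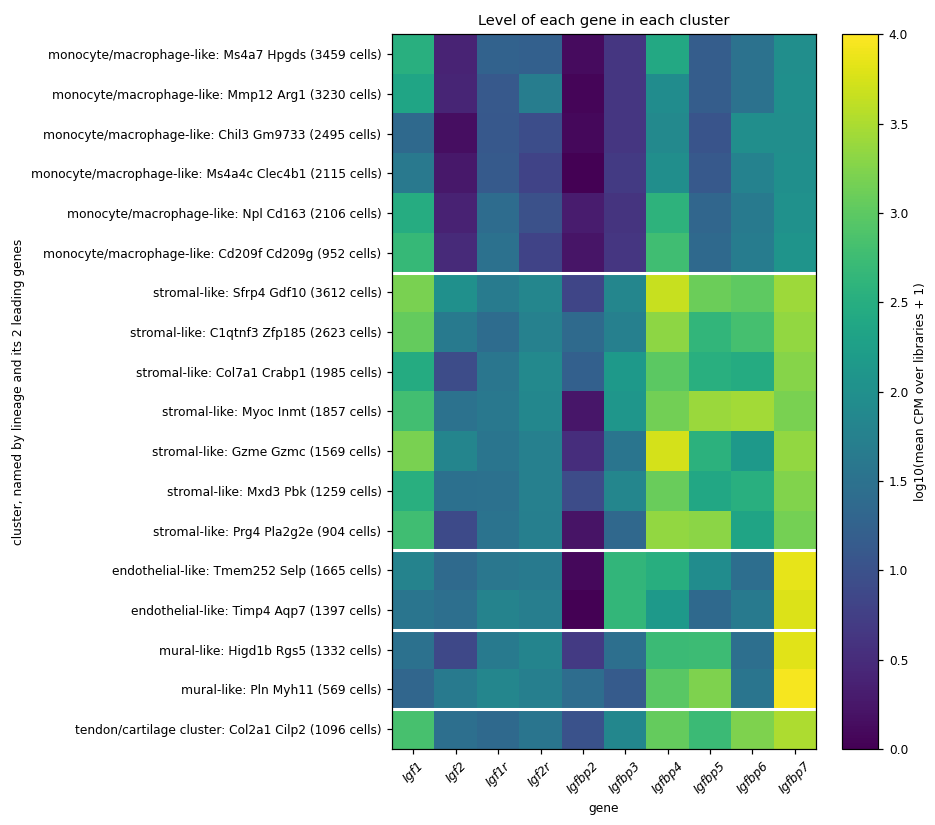
Level of each gene (columns) in each cluster (rows, named by lineage and its 2 leading genes), as log10 of the mean CPM over libraries plus 1. The Igf1 row means in macrophages run from 22.6 CPM in the cluster led by Chil3 and Gm9733 to 481 CPM in that led by Cd209f and Cd209g.

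Lineage totals sum over clusters whose shares differed between days. Fits restricted to 1 cluster were added after the data had been seen. Of the 68 calls over 12 comparisons of days, 43 could also be fitted in a single cluster with at least 3 libraries a side, and 23 of those kept their direction and passed in every such fit. Calls that kept their direction and passed included, at days 7 and 21, the stromal rise of Igfbp4 and fall of Igfbp3. They also included the mural fall of Igf2 and rise of Igfbp7 on those days and the endothelial rise of Igf1 at day 7. Of these, the mural Igf2 calls passed the filter on low counts only through day 0. The part of background in the endothelial Igf1 rise was not tested. Calls that did not included the stromal fall of Igfbp6 and the mural falls of Igfbp5 at days 7 and 21 and of Igfbp4 at day 7. Mural-like calls could be fitted only in the cluster led by Pln and Myh11. At day 3 no stromal-like, mural-like or macrophage call could be fitted in a single cluster, so those calls have no such check. The clusters were drawn from the same cells without the 10 genes, so cluster levels are a description.

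**Figure D4:**
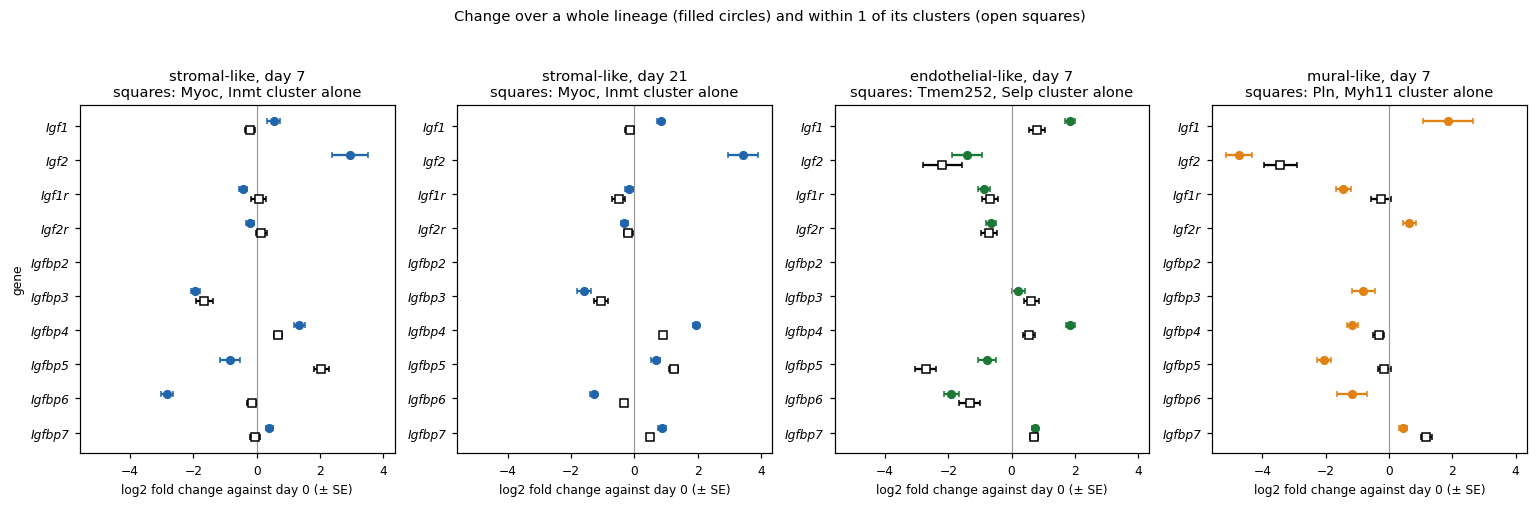
Log2 fold change against day 0 (horizontal axes, ± SE) of each gene over a whole lineage (filled circles) and within 1 of its clusters (open squares), in stromal-like cells at days 7 and 21 and in endothelial-like and mural-like cells at day 7. Stromal-like Igfbp6 at day 7 lies at -2.83 over the lineage and -0.17 in the cluster led by Myoc and Inmt, where Igfbp5 lies at 2.04 against -0.84 over the lineage. Igfbp2 and genes too low for a fit are left out.

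Treatment with p7N3 tested whether a CD47-activating peptide altered the injury site at day 7. None of the members passed in any lineage: 0 of 9 in monocyte/macrophage-like cells, where 0.00915% of all genes passed, 0 of 10 in stromal-like cells (0.00739%), 0 of 9 in endothelial-like cells (0%) and 0 of 8 in mural-like cells (0.0107%) by edgeR. At an unadjusted edgeR p under 0.05 there were 1, 1, 3 and 0 members in these lineages, where 7.92%, 15.4%, 8.51% and 6.57% of all genes tested stood under it. DESeq2 called 1, 0, 0 and 0 members, and 0.157%, 2.08%, 0.0236% and 0.00598% of the genes to which it gave an adjusted p. The member that DESeq2 called was Igf1 in macrophages, at 249, 293, 385 and 281 CPM in the day 7 libraries and 222, 231, 173 and 191 CPM with p7N3. Every treated library lay below every untreated library. The difference was -0.58 ± 0.14 on the log2 scale (SE, edgeR adjusted p = 0.349, unadjusted p = 0.00119). The adjusted p was 0.0438 with DESeq2, 0.036 in edgeR with no filter on low counts, and between 0.185 and 0.655 in edgeR when each of the 8 libraries was left out in turn.

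Within clusters the means with p7N3 were lower in all 6 macrophage clusters and no fit passed. The cluster led by Mmp12 and Arg1 held 238, 300, 396 and 265 CPM of Igf1 at day 7 and 191, 224, 145 and 148 CPM with p7N3, a difference of -0.72 ± 0.17 (edgeR adjusted p = 0.262). The cluster led by Ms4a7 and Hpgds differed by -0.46 ± 0.12 (adjusted p = 0.125), that led by Ms4a4c and Clec4b1 by -0.74 ± 0.18 (adjusted p = 0.583), that led by Npl and Cd163 by -0.30 ± 0.12 (adjusted p = 0.987) and that led by Cd209f and Cd209g by -0.21 ± 0.14 (adjusted p = 0.842). In the cluster led by Chil3 and Gm9733 the means were 35.6 and 18.9 CPM and too few UMIs were present for the test. The share of macrophages in that low-Igf1 cluster was 5.88% at day 7 and 10.9% with p7N3. The 6 granulocyte markers in macrophages summed to 175 to 383 CPM at day 7 and 323 to 1030 CPM with p7N3. T/NK lymphocyte-like cells held 21.8, 62.1, 181 and 22.3 CPM of Igf1 at day 7 and 5.53, 16.3, 21.8 and 17.7 CPM with p7N3. Dendritic cell-like cells held 28.4, 29.7, 32.1 and 12.6 CPM at day 7 and 23.0, 10.15, 12.4 and 27.1 CPM with p7N3, which overlapped. The part of granulocyte markers and of background in the macrophage difference was not tested. The other differences under p7N3 at an unadjusted p under 0.05 were Igf1 (-0.40 ± 0.17), Igf2 (-1.40 ± 0.65) and Igfbp7 (-0.20 ± 0.07) in endothelial-like cells and Igfbp2 (-0.70 ± 0.30) in stromal-like cells, with edgeR adjusted p from 0.298 to 0.585. A p that misses the threshold does not show that the groups were alike.

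**Figure D5:**
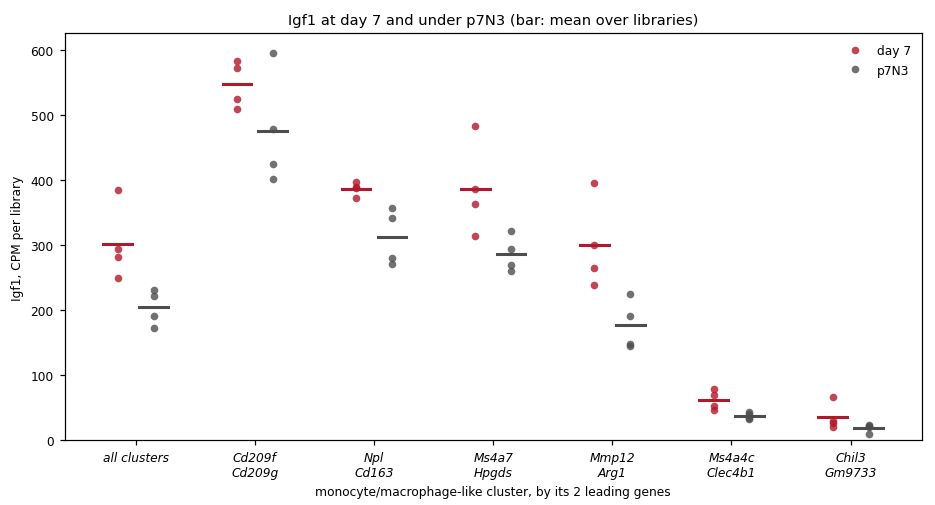
CPM of Igf1 in macrophages of the day 7 and p7N3 libraries, for the whole lineage (all clusters) and for each of its 6 clusters. Each point is 1 library and each bar is the mean over libraries. In the whole lineage the 4 p7N3 libraries lie between 173 and 231 CPM, below the 4 day 7 libraries at 249 to 385 CPM.

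The wider pathway was described with a list of 36 genes for the insulin receptor, adaptors, downstream kinases, proteases that cut binding proteins, and imprinted neighbours. Its counts are read against the shares of all genes tested that passed in each direction. In stromal-like cells 6 of 28 tested were higher and 17 lower at day 3 (33.2% and 32.8% of all genes), 9 of 30 higher and 9 lower at day 7 (28% and 26.6%), and 10 of 28 higher and 9 lower at day 21 (19.2% and 19.1%). H19, the noncoding neighbour of Igf2, rose by 3.19 ± 0.24, 5.13 ± 0.18 and 3.89 ± 0.26 on the log2 scale (edgeR adjusted p = 8.71e-08, 1.35e-09 and 2.86e-07), from 29.5 CPM at day 0 to 983 CPM at day 7. Mest, another imprinted gene, rose by 4.33 ± 0.23 at day 7 and 3.52 ± 0.25 at day 21. Grb14, an adaptor that restrains insulin receptor signalling, rose at day 3 from 0.97 to 9.45 CPM. Those that fell most were Irs3 and Pik3r1, the regulatory subunit of PI3-kinase (-2.62 ± 0.11), at day 3, Irs3 and the protease Htra3 (-2.31 ± 0.15) at day 7, and the adaptor Irs2 (-1.95 ± 0.17) and the RNA-binding protein Igf2bp2 (-1.74 ± 0.31) at day 21.

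In endothelial-like cells 4 of 18 of the pathway list were higher and 4 lower at day 3 (29% and 27.8% of all genes), 6 of 19 each way at day 7 (29.8% and 29.3%), and 6 higher and 2 lower of 18 at day 21 (13.4% and 12.1%). Mest led all 3 days, at 15.2 CPM at day 0, 278 CPM at day 3, 631 CPM at day 7 and 63.7 CPM at day 21. Insr, the insulin receptor, rose by 1.09 ± 0.32 at day 3, H19 rose by 4.79 ± 0.50 at day 7 and Stc1, an inhibitor of Pappa, rose by 1.34 ± 0.33 at day 21. Among those that fell were the protease Htra3 at day 3, Pik3ca, a catalytic subunit of PI3-kinase, at day 7 and the adaptor Grb10 at day 21. In mural-like cells 1 of 12 was higher and 5 lower at day 3 (28.2% and 28.9%), 4 of 22 higher and 7 lower at day 7 (25% and 21.7%), and 2 of 18 higher and 6 lower at day 21 (15.8% and 15.9%). Dlk1, an imprinted membrane protein, rose from 16.2 CPM at day 0 to 437 CPM at day 7 and 266 CPM at day 21, while Irs2 fell by 2.46 ± 0.33 at day 3 and 1.69 ± 0.21 at day 21. Akt1 rose at day 3, Stc1 at day 7 and Htra1 at day 21, and the falls included Irs1 at day 3, Stc2 and Adamts1 at day 7 and Foxo3 at day 21. In macrophages 0 of 10 were higher and 6 lower at day 3 (25.2% and 27.6%), 3 of 19 higher and 7 lower at day 7 (18.4% and 17.1%), and 0 of 12 higher and 6 lower at day 21 (12.7% and 13.6%). There Irs2 fell from 60.3 CPM at day 0 to 19.2, 16.3 and 15.6 CPM and the transcription factor Foxo1 from 33.1 CPM to 10.3, 8.21 and 13.2 CPM on days 3, 7 and 21, and Mest and Grb10 rose at day 7. No gene of the list passed under p7N3 in any lineage, of 24, 30, 23 and 26 tested. Over all tested genes of the list the median log2 fold change in stromal-like cells was -0.65 at day 3, -0.06 at day 7 and -0.14 at day 21.

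The genes whose levels most resembled each member were ranked by Pearson's r of log2(CPM + 1) over the 19 libraries, in the lineage where the member was highest, among genes with a mean of at least 10 CPM. These libraries share days and cluster make-up, so the values are descriptive. In stromal-like cells Igfbp6 was closest to Lrrn4cl (r = 0.992), Tshz2 (0.989) and Mturn (0.988). Igfbp4 was closest to Slc1a3 (r = 0.958), Aqp2 (0.934) and Fzd1 (0.932), and Igf1 to Atp1b1 (0.953), Ltbp3 (0.943) and Col3a1 (0.936). Igf2 was closest to Mdk (r = 0.947), Aebp1 (0.941) and Fstl1 (0.933). In mural-like cells Igfbp5 was closest to Ccdc3 (r = 0.96), Cbx6 (0.951) and mt-Nd4 (0.944), Igf1r to Crim1 (0.892), 2610507B11Rik (0.875) and Adcy5 (0.875), and Igf2r to Rbbp4 (0.888), Uqcrc1 (0.867) and Ddx39b (0.851). In endothelial-like cells Igfbp7 was closest to Trappc6a (r = 0.95), Rps14 (0.943) and Lmo2 (0.94) and Igfbp3 to Spata6 (0.847), Tex264 (0.825) and Abcg1 (0.824). Igfbp2 in mural-like cells, carried by few libraries, reached only r = 0.682 (Higd1a), 0.679 (Msx2) and 0.669 (Nov).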

How the data were processed

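Single-cell 3′ RNA libraries (10x Genomics v2) were read as UMI counts per gene and cell barcode, the matrices the authors deposited from Cell Ranger; the processing notes also name Seurat. The study's methods give the mouse genome mm10, whereas the build field of the labels names GRCh38, a human one, for 15 libraries and mm10 for 4, although the symbols of all libraries are mouse, and the version of the annotation is not given in the sources used here. All 19 libraries were used; 1 was deposited with all its barcodes. Barcodes were kept as cells from 500 detected genes upward, if mitochondrial UMIs did not exceed 25%. Normalized values of 2000 variable genes, without the 10 members and the 36 pathway genes, gave 30 principal components, 20 neighbours and Leiden clusters at resolution 0.8 (scanpy 1.11.5, leidenalg 0.10.2). Clusters were named from marker lists by rules set after the clusters were seen. Doublets were left in for the results given (3.9% multiplets are expected, per the labels). UMIs were summed per library and lineage over at least 10 cells and tested with edgeR 4.0.16 (R 4.3.3, filterByExpr, TMM factors, quasi-likelihood F test, Benjamini-Hochberg over all genes tested, 2-sided). Groups came from the labels. Every replicate 4 stands in a later run of sample numbers than replicates 1 to 3, and day 3 has no replicate 4. Whether these libraries form a batch was not tested. The script was tested on simulated data. UMI totals set the precision and limits given for 0 UMIs cover counting error only. Monocyte/macrophage-like sums at day 0 held 270795 to 625508 UMIs a library. Alternatives were DESeq2 1.42.0, RLE size factors, no filter, a replicate block, replicates 1 to 3 only, each library left out, removal of the highest 3.9% of Scrublet scores, resolution 2, and the tendon/cartilage cluster added to the stroma. Members, lists and rules were chosen with earlier results of these data known. All 10 members are named; of the pathway list, up to 2 genes each way per comparison with the largest fold past the threshold (1 gene of it is not reported here); as likeness, the 3 highest Pearson correlations. Promoters came from RefSeq, where 10 of 10 members matched.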

Additional observations from a re-analysis of the deposited data

Results flagged for a closer look

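Among 157 groups of 4 libraries, 14 held a library far from the other 3, where chance gives about 1 in 20. Most rest on few UMIs. In mural-like cells Igfbp2 stood at 184.5 CPM in day 0 replicate 4 (the others at 0), 25.96 CPM in day 7 replicate 2 (others 0.689 to 1.496) and 62.96 CPM in day 21 replicate 4 (others 2.38 to 5.63). Igfbp2 was 3.378 CPM in macrophages of day 0 replicate 3 and 0.8171 CPM in endothelial-like cells of day 21 replicate 2, 1 UMI each, with the others at 0. Igfbp3 in mural-like cells was 67.89 CPM in p7N3 replicate 3 (others 7.78 to 18.0). Igfbp6 was 64.43 CPM in macrophages of day 21 replicate 2, 27.56 CPM in those of p7N3 replicate 4, 8.917 CPM in endothelial-like cells of day 7 replicate 4 and 35.98 CPM in those of p7N3 replicate 4. Igfbp5 was 11.56 CPM in macrophages of p7N3 replicate 3. Of the receptors, Igf1r was 25.55 CPM in endothelial-like cells of p7N3 replicate 1, and Igf2r was 70.66 CPM in stromal-like cells of p7N3 replicate 1 and 73.42 CPM in mural-like cells of p7N3 replicate 2.

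Between lineages, 20 changes against day 0 ran in opposite directions and differed in a direct edgeR test with the library as a block; values are differences of log2 fold changes. For Igfbp4, stromal-like minus macrophage was 2.09 at day 3, 2.47 at day 7 and 2.40 at day 21, and endothelial-like minus macrophage was 2.44, 3.19 and 2.64. Mural-like minus stromal-like Igfbp4 was -2.07 at day 3 and -2.51 at day 7, and mural-like minus endothelial-like was -2.26 and -3.00. For Igfbp6 at day 3, stromal-like minus macrophage was -5.06 and endothelial-like minus macrophage -1.97. Macrophage Igfbp6 was read as background, and its day 3 rise was lost without day 0 replicate 1 or day 3 replicate 1. The endothelial-like fall was lost without day 3 replicate 1. For Igfbp7 at day 3, endothelial-like minus stromal-like was 0.888 and mural-like minus stromal-like 0.812. For Igf2, endothelial-like minus stromal-like was -4.65 at day 7, and mural-like minus stromal-like was -7.74 at day 7 and -5.37 at day 21. In the lineage fits of those days vascular Igf2 passed the filter on low counts only through day 0. For Igf2r at day 7, endothelial-like minus macrophage was -4.01 and mural-like minus endothelial-like 1.33. Macrophage Igf2r at day 0 rested on very few UMIs and passed the filter only through day 7. For Igfbp5 at day 21, mural-like minus stromal-like was -1.77. Adjusted p ran from 2.01e-20 to 0.000647.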

How the results depend on the processing

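Of 68 calls over 12 comparisons of days, 50 were kept under every alternative set in advance, and none of those alternatives reversed a call. Calls lost numbered 15 with single libraries left out, 8 with DESeq2, 7 with replicates 1 to 3 only, 4 each without the highest Scrublet scores and at resolution 2, 3 each with no filter and with the tendon/cartilage cluster added, 2 with a replicate block and 1 with RLE size factors. Libraries were not treated as paired by replicate number. Same-number deviations correlated at -0.161 to 0.134 over 60 pairs, and no comparison of 16 had every pair over 0.1. In 1 of 16 (p7N3 against day 7 in stromal-like cells, r from 0.0605 to 0.0968) every library correlated best with its own number. These values cannot exclude pairing. With the replicate block the members called were 5, 4, 1 and 0 in macrophages (days 3, 7, 21 and p7N3), 8, 9, 8 and 0 in stromal-like, 7, 8, 4 and 0 in endothelial-like and 5, 8, 3 and 0 in mural-like cells. All genes called then numbered 3490, 3141, 1760 and 2, 7050, 6457, 3898 and 6, 4360, 5266, 2054 and 0, and 2101, 3362, 1889 and 1 (without it 3327, 3379, 1810 and 1, 6860, 6887, 4115 and 1, 5011, 5343, 2254 and 0, and 2264, 3593, 1961 and 1).

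Counts of members called that moved by over 1.5 times were those of macrophages at day 21 (1 called), to 2 with DESeq2 and with no filter and to 0 with replicates 1 to 3 only and in the cluster led by Cd209f alone, and of macrophages under p7N3 (0 called), to 1 with DESeq2 and 1 with no filter. Mural-like cells at day 21 went from 3 to 5 with no filter, and stromal-like cells at day 7 from 9 to 6 at resolution 2, at that limit. In single clusters, chosen after the data were seen, the counts were 3 (day 7) and 4 (day 21) in that led by Myoc, 4 (day 3) and 2 (day 21) in that led by Tmem252, and 2 (day 7) in that led by Pln. The cause was not tested, but single clusters hold fewer cells and test fewer genes. Leaving out single libraries gave 3 to 5, 2 to 4, 1 and 0 members in macrophages, 8 to 9, 6 to 8, 8 to 9 and 0 in stromal-like, 6 to 7, 6 to 8, 3 to 5 and 0 in endothelial-like and 3 to 5, 6, 3 to 4 and 0 in mural-like cells. Of the opposite sign in single clusters were Igfbp4 in macrophages at day 21 (0.0122), stromal-like Igf1 at days 7 and 21 (-0.204 and -0.143), Igf1r (0.0559), Igfbp5 (2.04) and Igfbp7 (-0.0701) at day 7, and endothelial-like Igfbp4 at day 3 (-0.0264). Only Igfbp5 passed in that direction (edgeR adjusted p = 1.3e-05). The others did not pass (adjusted p from 0.442 to 0.964).

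Day 0 libraries were shallowest, so low members such as Igf2r in macrophages and Igfbp2 were measured with the least precision there. A day 0 value cannot be separated from tissue preparation, since each day is its own set of libraries.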
